A study of Mus musculus with 9 samples.

Results

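The genes described here are 33 mouse genes of glycolysis and of the response to low oxygen: 17 glycolytic enzymes, 6 genes of sugar and lactate transport or of flux control, and 10 genes of oxygen sensing or other targets of hypoxia-inducible factor (HIF). They were picked by name, through the RefSeq identifiers of the array's probes, from a list drawn up with earlier results of these data known. They make up 33 of the 18327 genes that could be named on the array, and all 33 were among the 14063 genes tested. The array carried 55 probes for them, of which 54 were tested, and those 54 were well above background on all 9 arrays. The 1 probe left out was for Hk1.

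Glycolysis breaks glucose down to pyruvate in the cytosol, and lactate dehydrogenase and the monocarboxylate carriers let the product leave as lactate. HIF is a transcription factor made of an oxygen-regulated alpha subunit and a constant partner, Arnt. In oxygen the Egln prolyl hydroxylases mark the alpha subunit for destruction, and in low oxygen it persists, binds short DNA words with an ACGTG or GCGTG core, and turns on glucose carriers, most glycolytic enzymes, Pdk1 and Vegfa. In the brain the glucose carrier Slc2a3 is known as the neuronal form and Slc2a1 as the form of vessels and glia, and firing neurons spend much of their energy on pumping ions.

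The cultures were cortical neurons of C57bl/6 mouse embryos taken at embryonic day 15 and kept in culture for 12 days. The control group was left untreated, the Bic group received 25 µM bicuculline for 6 h, and the KCl group received 50 mM potassium chloride for 6 h. Bicuculline blocks GABA-A receptors and so releases synaptic firing, and raised potassium depolarises the membrane directly. Each group had 3 one-colour arrays, and the labels do not say whether these came from separate cultures, so the p-values cover array-to-array spread alone, and that spread could be purely technical. All 3 groups share strain, age and culture, a culture is known to hold cells other than neurons, and both comparisons with control use the same 3 untreated arrays.

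The 75th percentile of the signal lay between 1586 and 3087 units on the 9 arrays, 65.0% to 75.9% of the non-control spots were well above background, and no spot was saturated. Levels below are log2 signal minus that array's 75th percentile, so a level of 0 equals the 75th percentile, and a change of 1 is a 2-fold change. Levels of different probes were not compared, since probes bind unequally. Of 10 genes known to answer neuronal activity, 8 were called higher after bicuculline and 9 after KCl, with Fos up by 2.76 and 4.47 on the log2 scale, and Egr1 was lower in both (limma, adjusted p = 5.94e-06 and 1.1e-06). Arc was lower after bicuculline (-0.65, adjusted p = 3.88e-05) and higher after KCl (0.71, adjusted p = 7.61e-06).

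After 6 h of KCl, 25 of the 33 genes were higher than in untreated cultures and 5 were lower. After bicuculline, 10 were higher and 7 lower. A gene was called where limma's adjusted p, over all genes tested in that comparison, was under 0.05. Against control, KCl called 35.8% of all 14063 genes higher and 36.0% lower, and bicuculline called 17.4% higher and 27.0% lower, so that both 25 of 33 and 10 of 33 were larger shares than those of the array as a whole. Their median log2 change was 0.31 after KCl and 0.02 after bicuculline, where the medians of all genes tested were 0.02 and -0.03. Tested directly against bicuculline, KCl gave 26 genes higher and 2 lower, where 36.1% of all genes were called higher and 28.8% lower. The groups' arrays did not overlap for 12 genes higher and 10 lower after bicuculline (22.1% and 34.8% of all genes tested), 25 higher and 5 lower after KCl (37.2% and 37.6%), and 27 higher and 2 lower for KCl against bicuculline (39.6% and 30.4%). In a bulk culture, a lower share of cells of one type and less RNA per cell cannot be told apart.

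**Figure D1:**
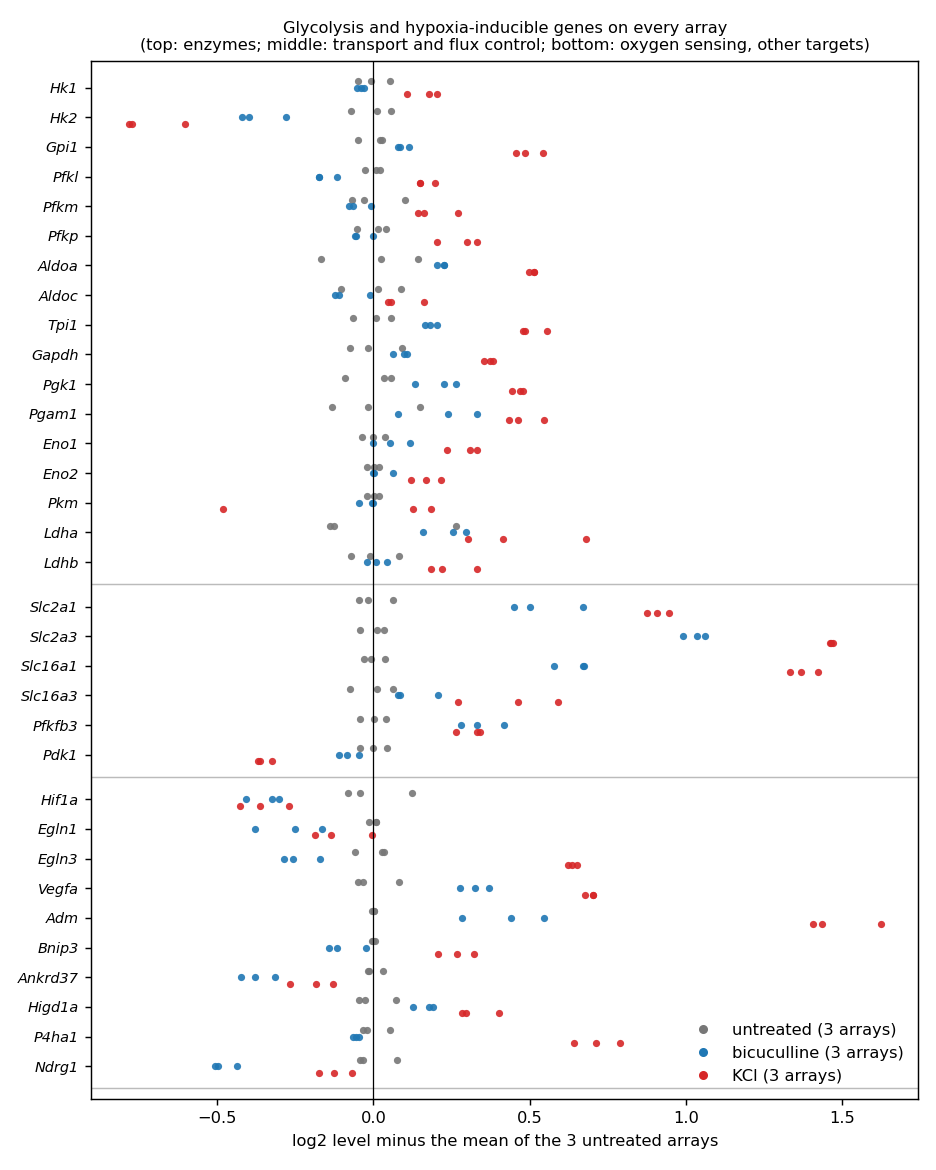
Log2 level of each of the 33 genes on every array, as a difference from the mean of the 3 untreated arrays (grey untreated, blue bicuculline, red KCl; 1 point per array, 3 arrays per group). Slc2a3, Slc16a1 and Adm lie farthest to the right after KCl and Hk2 farthest to the left; most enzymes lie between 0 and 0.6 after KCl, and several of those (Hk1, Pfkl, Pfkm, Eno2, Ldhb) fall below 0 under another scaling of the arrays.

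The calls differed in how far they rested on the way the arrays were brought to a common scale. Each gene was tested in 19 settings, which included 5 ways of background correction and scaling and the removal of each array in turn. After KCl, 7 genes were called higher in all 19 settings, and these were Slc2a1, Slc2a3, Slc16a1, Egln3, Vegfa, Adm and P4ha1. The genes called lower in all 19 were Hk2, Pdk1 and Hif1a. After bicuculline, Slc2a3 was the only 1 of the 33 genes called in all 19, and the only 1 called with normexp background correction. None of the rising enzymes was in these groups.

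The glucose carriers Slc2a3 and Slc2a1 and the lactate carrier Slc16a1 rose with both treatments. Slc2a3, the high-affinity glucose carrier of neurons, was at log2 levels of 3.64, 3.71 and 3.69 on the untreated arrays, 4.67, 4.72 and 4.74 after bicuculline, and 5.15, 5.14 and 5.15 after KCl. The 3 groups did not overlap, and the KCl arrays were the highest. Its log2 change was 1.03 ± 0.03 (SE) after bicuculline, a 2.04-fold rise (adjusted p = 3.21e-07), and 1.47 ± 0.03 after KCl, a 2.76-fold rise (adjusted p = 2.1e-08). Over the 19 settings the KCl change ran from 1.24 to 1.48. The further rise from bicuculline to KCl was 0.44 ± 0.03 (adjusted p = 1.34e-05), a call that was lost with normexp background correction and with spike-in scaling.

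Slc2a1, the other main glucose carrier of the brain, was at 3.88, 3.96 and 3.85 untreated, 4.35, 4.57 and 4.40 after bicuculline, and 4.84, 4.81 and 4.78 after KCl. Again no group overlapped another. It rose by 0.54 ± 0.06 with bicuculline (adjusted p = 0.000212), though not with normexp correction (adjusted p = 0.078), and by 0.91 ± 0.06 or 1.88-fold with KCl (adjusted p = 3.79e-06). Slc16a1, a monocarboxylate carrier that moves lactate and pyruvate across the membrane, was at 2.21, 2.27 and 2.23 untreated, 2.81, 2.91 and 2.91 after bicuculline, and 3.57, 3.60 and 3.66 after KCl. These 3 groups stood apart as well. Slc16a1 rose by 0.64 ± 0.04 with bicuculline (adjusted p = 9.98e-06, and 0.091 with normexp correction) and by 1.37 ± 0.04 or 2.59-fold with KCl (adjusted p = 6.85e-08), and the step from bicuculline to KCl of 0.73 ± 0.04 was called in all 19 settings.

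Slc16a3, the lactate exporter typical of strongly glycolytic cells, was at 0.50, 0.37 and 0.46 untreated, 0.52, 0.65 and 0.53 after bicuculline, and 0.71, 1.04 and 0.91 after KCl. Only the KCl rise passed the test (0.44 ± 0.08, adjusted p = 0.00152), and it did not pass with normexp correction or spike-in scaling. Pfkfb3, which makes the fructose bisphosphate that activates phosphofructokinase, was at 1.90, 1.87 and 1.82 untreated, 2.20, 2.28 and 2.15 after bicuculline, and 2.19, 2.21 and 2.13 after KCl. Both treated groups were above every untreated array and overlapped each other. Pfkfb3 changed by 0.34 ± 0.04 with bicuculline (adjusted p = 0.000482) and 0.31 ± 0.04 with KCl (adjusted p = 0.000332), and the direct difference between KCl and bicuculline was -0.03 ± 0.04 (adjusted p = 0.545). The KCl call was lost with normexp correction, median scaling and spike-in scaling.

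Pdk1, the kinase that shuts pyruvate dehydrogenase and keeps pyruvate out of the mitochondrion, went the other way. It was at 2.88, 2.83 and 2.79 untreated, 2.79, 2.75 and 2.72 after bicuculline, and 2.46, 2.51 and 2.47 after KCl. The KCl arrays were the lowest, and the bicuculline arrays lay just under the untreated ones. Pdk1 fell by 0.35 ± 0.03 on the log2 scale with KCl (adjusted p = 3.45e-05), and the bicuculline difference of -0.08 ± 0.03 did not pass (adjusted p = 0.0932). Within this group of 6 genes, 4 rose and none fell with bicuculline (median 0.44; 1, Pdk1, was lower at an unadjusted p under 0.05), and 5 rose and 1 fell with KCl (median 0.68).

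The enzymes of glycolysis rose by smaller amounts after KCl, and those rises depended on scaling. With the 75th percentile, 14 of 17 were called higher and 1 lower after KCl, with a median of 0.28, and 3 were called higher and 2 lower after bicuculline, with a median of 0.02. With normexp correction limma called no enzyme higher after KCl (1 at an unadjusted p under 0.05). It called 6 with quantile normalization, 6 with median scaling and 5 with spike-in scaling. Over all 14063 genes tested, 5037 were called higher after KCl with the 75th percentile, and 1834, 3946, 2942 and 2201 in those settings in turn. Higher calls thus became fewer over the whole array as well as among the enzymes. The median of the enzymes after KCl was then 0.14, 0.10, 0.12 and 0.05 in that order, while the median of all genes moved to 0.08, -0.06, -0.14 and -0.20.

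**Figure D2:**
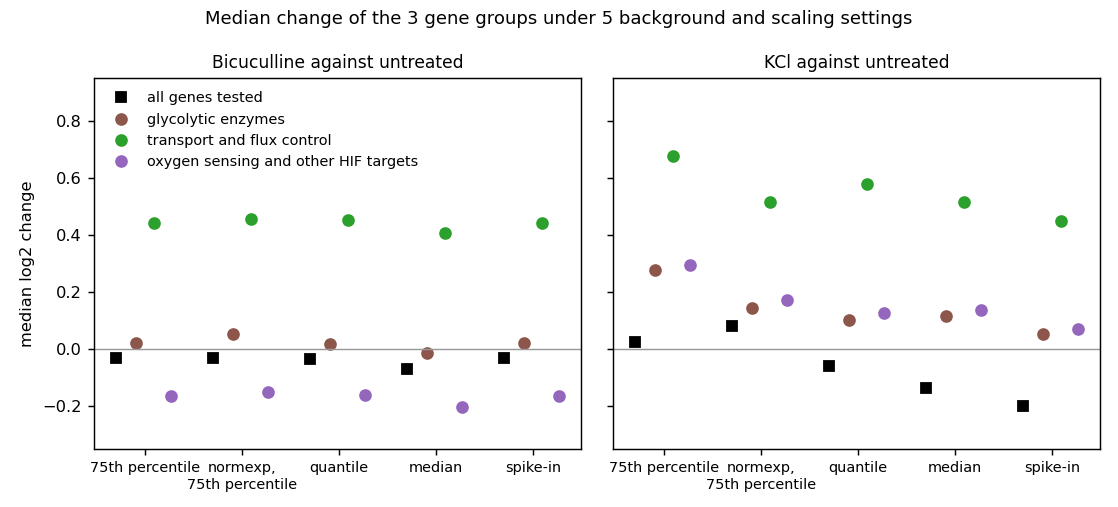
Median log2 change of the 17 enzymes, the 6 transport and flux-control genes and the 10 oxygen-sensing and other HIF target genes, beside all genes tested, under 5 background and scaling settings (left bicuculline, right KCl, both against untreated). After KCl the transport group stays between 0.45 and 0.68, while the enzymes drop from 0.28 to 0.05 as the median of all genes drops from 0.02 to -0.20.

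Most of the enzymes give some of the brightest signals on the array. The genes tested were put in 10 bins of equal size by mean signal, and 11 of the 17 enzymes lay in the brightest bin. Over all 1407 genes of that bin, the median KCl change was 0.18, with 60.7% called higher and 11.5% lower, against medians from -0.13 to 0.03 in the next 7 bins, 0.16 in the ninth and 0.53 in the dimmest. The 11 enzymes there had a median of 0.46, and 10 were called higher. What signal strength added to these changes was not tested. This description by signal strength was added after the values were seen.

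The enzyme with the largest KCl rise was Aldoa, the aldolase of muscle and most other tissues, at 7.11, 7.42 and 7.30 untreated, 7.51, 7.48 and 7.50 after bicuculline, and 7.78, 7.79 and 7.79 after KCl. The untreated arrays were the most scattered and lay below all others. Its rise was 0.51 ± 0.07 with KCl (adjusted p = 0.000264) and 0.22 ± 0.07 with bicuculline (adjusted p = 0.0343), and the bicuculline call was lost in 12 of the 19 settings, among them all 4 other scaling settings, slide as a block (adjusted p = 0.0672) and the removal of each of 5 single arrays. Tpi1, triosephosphate isomerase, was at 5.38, 5.50 and 5.45 untreated, 5.61, 5.63 and 5.65 after bicuculline, and 5.93, 5.92 and 6.00 after KCl. The 3 groups did not overlap, and the changes were 0.18 ± 0.04 with bicuculline (adjusted p = 0.00636) and 0.51 ± 0.04 with KCl (adjusted p = 9.83e-06). The bicuculline call of Tpi1 was lost with normexp correction, median scaling and spike-in scaling. Gpi1, which turns glucose phosphate into fructose phosphate, rose by 0.49 ± 0.04 with KCl, Pgam1, phosphoglycerate mutase, by 0.48 ± 0.09, and Pgk1, the kinase of the first ATP-yielding step, by 0.46 ± 0.05. All 5 of these genes kept their KCl sign in the 5 scaling settings, and none of them was called with normexp correction.

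Gapdh, often used as a reference gene, was at 6.32, 6.49 and 6.38 untreated, 6.49, 6.50 and 6.46 after bicuculline, and 6.77, 6.75 and 6.78 after KCl. The KCl arrays lay above all others, while untreated and bicuculline arrays overlapped. Its KCl rise was 0.37 ± 0.04 (adjusted p = 0.000112), and the bicuculline difference was 0.09 ± 0.04 (adjusted p = 0.14). The KCl call was kept with median scaling and lost with normexp correction, quantile normalization and spike-in scaling.

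Hk2, the inducible hexokinase and a well-known HIF target, was the 1 enzyme that fell with KCl. It was at 0.93, 0.80 and 0.88 untreated, 0.45, 0.59 and 0.47 after bicuculline, and 0.09, 0.27 and 0.10 after KCl. The 3 groups did not overlap and ran in that order. Hk2 fell by 0.37 ± 0.06 on the log2 scale with bicuculline (adjusted p = 0.00216, and 0.0895 with normexp correction) and by 0.72 ± 0.06 with KCl (adjusted p = 2e-05), and it was 0.35 ± 0.06 lower with KCl than with bicuculline in log2 units (adjusted p = 0.00162). The KCl level was 1.65 times below the untreated one. Hk1, the constitutive brain hexokinase, was at 5.62, 5.72 and 5.66 untreated, 5.64, 5.63 and 5.62 after bicuculline, and 5.78, 5.85 and 5.87 after KCl. Its KCl difference was 0.16 ± 0.04 with the 75th percentile (adjusted p = 0.00496) and turned negative with quantile normalization (-0.12) and spike-in scaling (-0.06).

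The phosphofructokinases, which catalyse the committed step, had small KCl differences. Pfkl was at 2.14, 2.15 and 2.10 untreated, 1.96, 2.02 and 1.96 after bicuculline, and 2.28, 2.33 and 2.28 after KCl. It was lower with bicuculline (-0.15 ± 0.03, adjusted p = 0.00472) and higher with KCl (0.17 ± 0.03, adjusted p = 0.00165), and the KCl sign turned with normexp correction and spike-in scaling. The bicuculline call of Pfkl was lost in those same settings, and its KCl call was also lost with median scaling. Pfkm was at 4.63, 4.76 and 4.59 untreated, 4.66, 4.59 and 4.60 after bicuculline, and 4.80, 4.83 and 4.93 after KCl, a KCl difference of 0.19 ± 0.05 (adjusted p = 0.0131) that fell below 0 with normexp correction, quantile normalization and spike-in scaling. The KCl arrays stood above the others for both genes. Pfkp was at 2.79, 2.88 and 2.86 untreated, 2.84, 2.79 and 2.79 after bicuculline, and 3.05, 3.17 and 3.14 after KCl, a KCl rise of 0.28 ± 0.04 (adjusted p = 0.000597). That call was lost with normexp correction, median scaling and spike-in scaling.

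In the lower part of the pathway, Eno1, the widespread enolase, was at 2.38, 2.42 and 2.35 untreated, 2.38, 2.50 and 2.44 after bicuculline, and 2.69, 2.71 and 2.62 after KCl. The neuronal enolase Eno2 was at 2.79, 2.80 and 2.76 untreated, 2.79, 2.85 and 2.78 after bicuculline, and 2.95, 2.90 and 3.00 after KCl. Both were highest after KCl and overlapped between the other groups, with KCl differences of 0.29 ± 0.04 (adjusted p = 0.000388) for Eno1 and 0.17 ± 0.04 (adjusted p = 0.00289) for Eno2, the latter negative with spike-in scaling. Both calls were lost with normexp correction, median scaling and spike-in scaling, and that of Eno2 also with quantile normalization. Ldha, the lactate dehydrogenase subunit that HIF is known to induce, was at 6.51, 6.92 and 6.53 untreated, 6.91, 6.95 and 6.81 after bicuculline, and 6.96, 7.07 and 7.33 after KCl. Its arrays scattered more than those of its neighbours, and the KCl rise was 0.47 ± 0.13 (adjusted p = 0.0121). That call was lost with normexp correction (adjusted p = 0.45) and with quantile (0.23), median (0.097) and spike-in scaling (0.12).

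Ldhb, the subunit of oxidative tissues, ranged from 5.88 to 6.03 untreated, 5.93 to 5.99 after bicuculline and 6.13 to 6.28 after KCl, a KCl difference of 0.25 ± 0.05 (adjusted p = 0.00329) that turned to -0.11 with quantile normalization. Aldoc, the brain aldolase that is strong in astrocytes, was at 5.97, 6.16 and 6.09 untreated, 6.06, 5.95 and 5.97 after bicuculline, and 6.12, 6.13 and 6.24 after KCl. Its groups overlapped, and neither difference from control passed the test (adjusted p = 0.31 and 0.209). Pkm, pyruvate kinase, was not called either, and here 1 array decided the value. It was at 2.87, 2.85 and 2.89 untreated and at 3.00, 3.06 and 2.39 after KCl, and without KCl array 3 its KCl change was 0.16 (adjusted p = 0.00593) in place of -0.06 (adjusted p = 0.754). That array was the only KCl array on its slide.

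The oxygen-sensing genes and other HIF targets did not move as one group. After bicuculline 3 of 10 were called higher and 5 lower (median -0.17), and after KCl 6 were higher and 3 lower (median 0.30). Hif1a, the oxygen-regulated subunit itself, was at 1.26, 1.09 and 1.05 untreated, 0.83, 0.81 and 0.73 after bicuculline, and 0.86, 0.77 and 0.71 after KCl. Every treated array was below every untreated array, and the treated groups overlapped. Hif1a fell by 0.34 ± 0.06 on the log2 scale with bicuculline (adjusted p = 0.00332) and by 0.35 ± 0.06 with KCl (adjusted p = 0.00142). The bicuculline call was lost with normexp correction (adjusted p = 0.052) and spike-in scaling (adjusted p = 0.075), while the KCl call was kept in all 19 settings. HIF is known to be set mainly by the stability of its protein, which an expression array does not read.

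Adm, the vessel-dilating peptide adrenomedullin, had the largest KCl change of the 33 genes. It was at -0.89, -0.90 and -0.89 untreated, -0.61, -0.35 and -0.45 after bicuculline, and 0.51, 0.73 and 0.54 after KCl. The 3 groups stood apart. Its rise was 0.42 ± 0.08 with bicuculline (adjusted p = 0.00293, and 0.0829 with normexp correction) and 1.49 ± 0.08 or 2.81-fold with KCl (adjusted p = 1.05e-06), and KCl exceeded bicuculline by 1.06 ± 0.08 (adjusted p = 1.29e-05), a call kept in all 19 settings.

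Vegfa, the growth factor of blood vessels, was at 2.31, 2.45 and 2.33 untreated, 2.64, 2.73 and 2.69 after bicuculline, and 3.07, 3.07 and 3.04 after KCl. These groups did not overlap. Its changes were 0.32 ± 0.04 with bicuculline (adjusted p = 0.000548, and 0.266 with normexp correction) and 0.70 ± 0.04 with KCl (adjusted p = 2.57e-06). P4ha1, a subunit of the collagen prolyl hydroxylase, was at 1.68, 1.60 and 1.59 untreated, 1.57, 1.57 and 1.56 after bicuculline, and 2.41, 2.26 and 2.34 after KCl. It was high after KCl alone, with a rise of 0.71 ± 0.04 (adjusted p = 2.39e-06) against a bicuculline difference of -0.06 ± 0.04 (adjusted p = 0.337), and the direct difference between the treatments was 0.77 ± 0.04 (adjusted p = 3.8e-06).

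Egln3, the inducible oxygen-sensing prolyl hydroxylase, moved in opposite directions. It was at -0.45, -0.45 and -0.54 untreated, -0.77, -0.65 and -0.74 after bicuculline, and 0.16, 0.14 and 0.17 after KCl. The bicuculline arrays were the lowest and the KCl arrays the highest. Egln3 fell by 0.24 ± 0.04 on the log2 scale with bicuculline (adjusted p = 0.00211), a call lost with normexp correction and spike-in scaling, and rose by 0.64 ± 0.04 with KCl (adjusted p = 3.37e-06). KCl exceeded bicuculline by 0.88 ± 0.04 (adjusted p = 1.73e-06). Egln1, the main oxygen sensor under normal oxygen, was at 1.60, 1.62 and 1.62 untreated, 1.24, 1.36 and 1.45 after bicuculline, and 1.43, 1.48 and 1.61 after KCl. It fell by 0.26 ± 0.06 with bicuculline (adjusted p = 0.0108), and its KCl difference of -0.11 ± 0.06 did not pass the test (adjusted p = 0.152). The bicuculline call was lost with normexp correction and spike-in scaling. The KCl fall was called with median scaling (-0.27, adjusted p = 0.013), spike-in scaling (-0.34, adjusted p = 0.014) and slide as a block (-0.22, adjusted p = 0.03).

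Of the remaining 4 targets, Ndrg1 and Ankrd37 were lower with both treatments. Ndrg1, a stress-induced gene, fell by 0.48 ± 0.05 with bicuculline (adjusted p = 9.27e-05) and by 0.12 ± 0.05 with KCl (adjusted p = 0.0389), and Ankrd37 fell by 0.37 ± 0.04 (adjusted p = 0.000324) and by 0.19 ± 0.04 (adjusted p = 0.00486). The KCl call of Ndrg1 was lost in 8 of the 19 settings. Among them were normexp correction (adjusted p = 0.142), slide as a block (adjusted p = 0.349) and the removal of some single arrays. The KCl call of Ankrd37 was lost with normexp correction (-0.09, adjusted p = 0.639) and slide as a block (adjusted p = 0.0593). With normexp correction the bicuculline calls of both were lost too (adjusted p = 0.0515 for Ndrg1 and 0.245 for Ankrd37). Bnip3, which marks mitochondria for removal, was higher with KCl (0.27 ± 0.04, adjusted p = 0.000667) and not called with bicuculline (-0.09 ± 0.04, adjusted p = 0.111). The KCl call of Bnip3 was lost with normexp correction (0.13) and with quantile (0.06), median (0.11) and spike-in scaling (0.04). Higd1a, a small mitochondrial protein, was higher with bicuculline (0.17 ± 0.05, adjusted p = 0.0213) and with KCl (0.33 ± 0.05, adjusted p = 0.000341). Its KCl call was lost with normexp correction and spike-in scaling. Its bicuculline call was lost in 8 of the 19 settings, among them the mean of its probes (0.04, adjusted p = 0.36), and its other probe gave -0.08 with bicuculline.

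Slide was the batch that the file headers gave. Slide 1 held control and bicuculline arrays 1 and 2, slide 2 control and bicuculline array 3 with KCl arrays 1 and 2, and slide 3 held KCl array 3 alone. The median bicuculline change was 0.02 within slide 1 and 0.02 within slide 2 for the enzymes, 0.45 and 0.44 for transport and flux control, and -0.16 and -0.16 for oxygen sensing and other targets. The median KCl change within slide 2 was 0.25 for the enzymes, 0.70 for transport and flux control, and 0.30 for oxygen sensing and other targets.

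Log ratios of related genes on the same array do not depend on a single scale factor of that array. They can still depend on background correction and quantile normalization, which act by signal strength, and they do not show which gene moved. The median KCl change of all genes was 0.18 in the brightest bin, which held Hk1, and -0.10 in the fifth, which held Hk2 and Slc16a3. What signal strength added to the ratios was not tested. For 9 pairs and 3 comparisons, 27 exact two-sided permutation tests were run. With 3 arrays against 3 the smallest p they allow is 0.1, which adjusts to 0.193, so none could pass. The arrays of the 2 groups stood apart in 14 of the 27.

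The Hk2/Hk1 log2 ratio was lower by 0.33 with bicuculline (-5.12 ± 0.08 against -4.80 ± 0.12, SD, n = 3) and by 0.88 with KCl (-5.68 ± 0.10, SD, n = 3), with no overlap between any groups. Between the glucose carriers, the Slc2a3/Slc2a1 ratio was higher by 0.49 with bicuculline and by 0.56 with KCl, so that the neuronal form gained more under both. Between the lactate carriers, the Slc16a3/Slc16a1 ratio was lower by 0.52 and 0.93. The Egln3/Egln1 ratio was higher by 0.75 with KCl, and with bicuculline its arrays overlapped those of control (0.03). The Aldoc/Aldoa ratio was lower by 0.30 with bicuculline and by 0.42 with KCl. For Ldha/Ldhb, Eno2/Eno1, Pfkp/Pfkm and Pfkl/Pfkm, treated and untreated arrays overlapped in both comparisons.

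**Figure D3:**
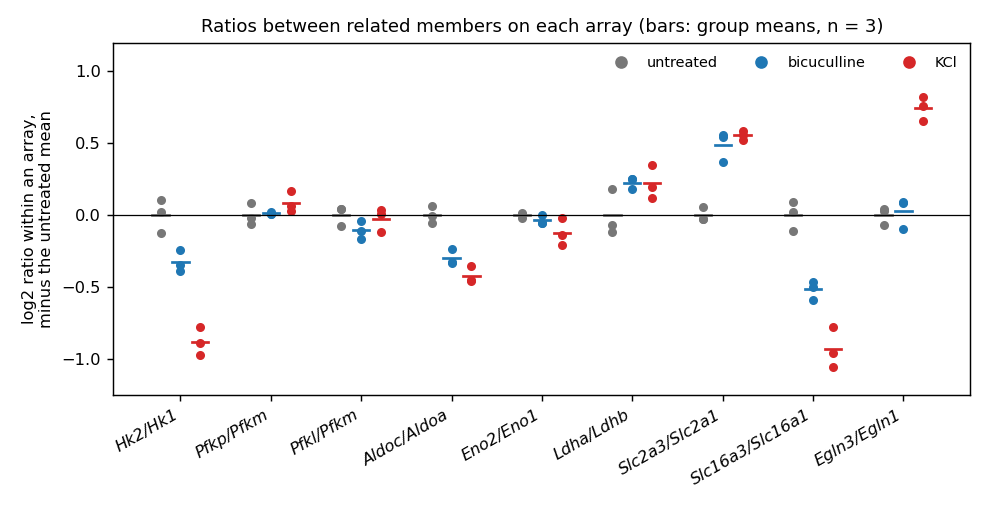
Log2 ratio of 2 related genes on each array, minus the mean of the 3 untreated arrays, for 9 pairs (grey untreated, blue bicuculline, red KCl; 1 point per array; horizontal bars are group means, n = 3). Hk2/Hk1 and Slc16a3/Slc16a1 step down by up to 0.88 and 0.93 after KCl, Egln3/Egln1 is 0.75 higher after KCl alone, and Slc2a3/Slc2a1 is 0.49 to 0.56 higher after both treatments.

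For 14 of the 33 genes the array held 2 or more probes. Of the 54 probes tested, 39 were called higher and 6 lower with KCl, where 36.8% and 34.4% of all 20992 probes tested were, and 14 were called higher and 10 lower with bicuculline, where 18.1% and 24.7% were. Slc16a1, Vegfa and P4ha1, among the larger KCl risers, had probes that rose together. The 3 probes of Slc16a1 gave KCl changes of 1.37, 1.37 and 1.43 and bicuculline changes of 0.58, 0.64 and 0.68. The 4 probes of Vegfa gave KCl changes of 0.70, 0.74, 0.87 and 1.30, all called, and the 2 of P4ha1 gave 0.71 and 0.60. Both probes of Pdk1 were called lower with KCl (-0.35 and -0.39), and its dimmer probe was also called lower with bicuculline (-0.25, adjusted p = 0.00344).

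Other genes had probes that disagreed. The second probe of Higd1a gave -0.02 with KCl (adjusted p = 0.658) against 0.33 for the brightest, and that of Pfkp gave -0.09 (adjusted p = 0.091) against 0.28. The brightest Hk1 probe, assigned to a different RefSeq transcript than the others, gave 0.16, and the other 4 tested ranged from -0.10 to 0.12. The 2 dimmer Pfkfb3 probes gave larger KCl changes, 0.59 and 0.60, than the brightest, at 0.31, and were not called with bicuculline. Slc2a3, Slc2a1, Adm, Egln3, Hk2 and Hif1a rest on 1 probe each.

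**Figure D4:**
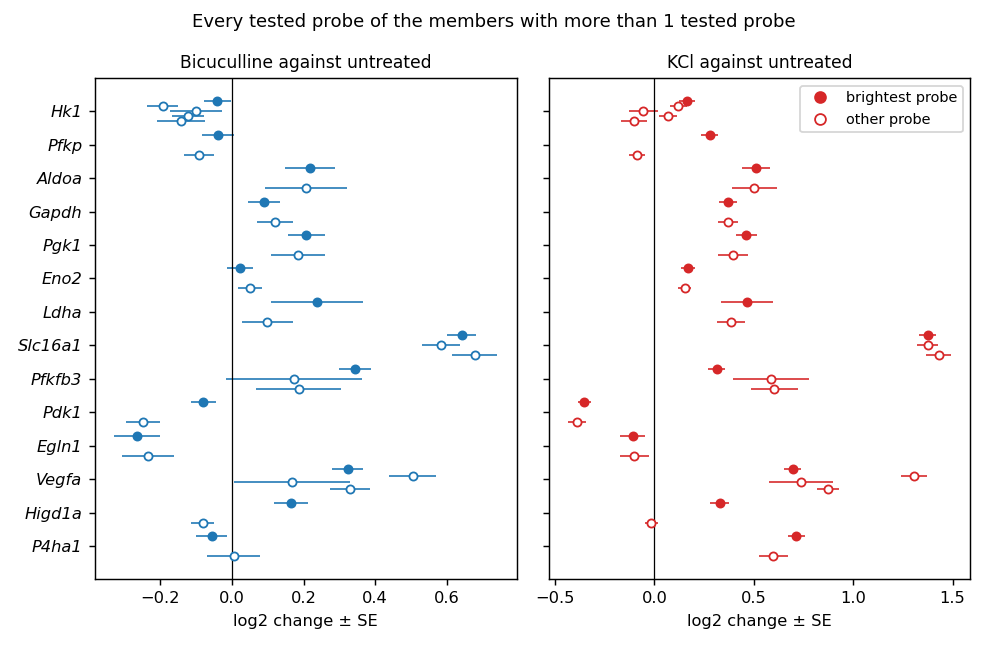
Log2 change ± SE of every tested probe of the 14 genes with more than 1 tested probe (left bicuculline, right KCl, both against 3 untreated arrays; filled brightest probe, open other probes). The probes of Slc16a1, Vegfa and P4ha1 all lie well to the right of 0 after KCl, while those of Pfkp and Higd1a split, with the brightest at 0.28 and 0.33 and the other at -0.09 and -0.02.

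Promoters are shown because these genes are grouped as HIF targets while their mRNAs went different ways. RefSeq windows of 300 bases (GRCm38.p6), from 250 bases before to 50 after a start, were at hand for 31 of the 33 genes, 45 windows in all. Slc2a3 and Ndrg1 were not matched. The 250 bases before the start are given for 4 genes that rose with KCl in all 19 settings and for Hk2, which fell, 5′ to 3′ along the gene's strand, with the HIF core words ACGTG and GCGTG, or their reverse complements CACGT and CACGC, in capitals.
Slc2a1, chr4:119108495-119108744, plus strand: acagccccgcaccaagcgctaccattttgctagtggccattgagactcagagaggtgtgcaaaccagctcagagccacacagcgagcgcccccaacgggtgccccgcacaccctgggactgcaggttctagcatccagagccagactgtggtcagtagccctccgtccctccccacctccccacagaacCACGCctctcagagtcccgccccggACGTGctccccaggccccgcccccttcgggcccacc
Slc16a1, chr3:104638414-104638663, plus strand: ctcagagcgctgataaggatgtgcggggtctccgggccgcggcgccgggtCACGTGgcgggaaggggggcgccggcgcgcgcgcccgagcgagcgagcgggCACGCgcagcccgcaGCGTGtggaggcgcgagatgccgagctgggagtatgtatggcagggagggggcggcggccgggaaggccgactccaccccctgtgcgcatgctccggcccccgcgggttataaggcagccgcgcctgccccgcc
Adm, chr7:110627407-110627656, plus strand: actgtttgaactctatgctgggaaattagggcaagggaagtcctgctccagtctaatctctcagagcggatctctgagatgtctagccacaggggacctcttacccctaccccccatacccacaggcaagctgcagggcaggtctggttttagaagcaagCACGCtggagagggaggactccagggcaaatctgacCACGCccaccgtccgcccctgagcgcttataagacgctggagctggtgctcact
P4ha1, chr10:59323046-59323295, plus strand: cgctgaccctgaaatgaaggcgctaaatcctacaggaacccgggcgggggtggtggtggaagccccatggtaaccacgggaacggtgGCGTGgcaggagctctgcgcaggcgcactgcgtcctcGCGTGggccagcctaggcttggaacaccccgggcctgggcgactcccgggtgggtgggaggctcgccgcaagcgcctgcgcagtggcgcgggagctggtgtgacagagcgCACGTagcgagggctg
Hk2, chr6:82774455-82774704, minus strand: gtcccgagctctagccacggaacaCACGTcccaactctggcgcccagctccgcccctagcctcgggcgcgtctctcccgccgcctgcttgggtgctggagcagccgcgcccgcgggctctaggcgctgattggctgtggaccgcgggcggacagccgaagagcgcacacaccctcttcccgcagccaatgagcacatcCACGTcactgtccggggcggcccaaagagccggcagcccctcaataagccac

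In these stretches Slc2a1 holds 2 matches, Slc16a1 4, Adm 2, P4ha1 3 and Hk2 2, where CACGTG counts as 2 because it reads ACGTG on each strand. Adm holds the GCGTG form alone, and Hk2 the ACGTG form alone. Over the full windows, 28 of 31 genes (90.3%) held at least 1 core on either strand, against 46.7% of all 27025 genes with a window, 65.1% of the 11214 of those tested here, and 43.8% of all 32851 windows. ACGTG alone was in 22 of 31 (71.0%), against 28.1% of genes tested. The genes without a core were Gpi1, Tpi1 and Eno2, of which Gpi1 and Tpi1 were among the larger KCl risers. The cAMP response element TGACGTCA was in 1 of 31 genes, Ldha (3.2%, against 3.5% of genes tested and 1.8% of all windows), and the AP-1 site TGACTCA in 1, Aldoa (3.2%, against 4.6% and 5.2%). A match is a run of letters and says nothing about whether a factor was bound in these cultures.

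Around the 33 genes, related pathways were counted from fixed lists. The shares of all genes tested, to be read beside every list, were 35.8% higher and 36.0% lower with KCl, and 17.4% and 27.0% with bicuculline. Other HIF pathway and target genes included 35 that were tested, of which 20 were higher and 6 lower with KCl (median 0.26), and 7 were higher and 10 lower with bicuculline (median 0.01). Stc2, a secreted glycoprotein induced by stress, rose by 1.00 ± 0.05 with bicuculline and 2.07 ± 0.05 with KCl (adjusted p = 3.69e-08). Cited2, which competes with HIF for its coactivator, rose by 1.31 ± 0.05 and 1.41 ± 0.05 (adjusted p = 6.92e-07 and 1.28e-07). Both genes were called in all 5 scaling settings, and their treated arrays lay above every untreated one.

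Among 14 other glycolytic isozymes and regulators, 2 were higher and 4 lower with bicuculline, and 1 was higher and 5 lower with KCl. Adpgk, which phosphorylates glucose with ADP in place of ATP, rose by 0.98 ± 0.03 with bicuculline (adjusted p = 5.37e-07) and was not called after KCl (adjusted p = 0.995), and the direct difference between the treatments had an adjusted p of 6.4e-07. Pfkfb1, a relative of Pfkfb3, fell by 0.46 with bicuculline and by 1.22 with KCl, neither called with normexp correction. Of 14 other sugar and monocarboxylate carriers, 3 were higher and 7 lower with bicuculline and 4 higher and 6 lower with KCl. Among them Slc2a6 fell by 0.70 and Slc2a10 by 0.62 with bicuculline, and Slc2a4, the insulin-responsive carrier, rose by 0.70 with KCl, while the KCl difference of 0.56 for Slc16a8 was called in the main scaling alone. The call of Slc2a10 was lost with normexp correction, and those of Slc2a6 and Slc2a4 were kept in all 5 scaling settings.

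The pathways that glycolysis feeds were split, with calls in both directions after KCl in each list. The shares of all genes tested stand above (35.8% higher and 36.0% lower with KCl, 17.4% and 27.0% with bicuculline). Of 14 genes of pyruvate entry and gluconeogenesis, 5 were higher and 3 lower with KCl, and 1 was higher and 2 lower with bicuculline. Pdk3 rose by 0.26 and 0.90 with bicuculline and KCl, against the fall of Pdk1, and Fbp1, a gluconeogenic phosphatase, fell by 0.27 with bicuculline and rose by 0.75 with KCl. The bicuculline calls of Pdk3 and Fbp1 were lost with normexp correction and spike-in scaling, while their KCl calls were kept in all 5 scaling settings. Of 7 pentose phosphate genes, limma called none higher (0 at an unadjusted p under 0.05) and 2 lower with bicuculline, H6pd (-0.23) and Pgd (-0.19), and 2 were higher and 2 lower with KCl, led by H6pd (-0.73). Both bicuculline calls were lost with normexp correction and spike-in scaling, and the KCl call of H6pd was lost with normexp correction. Of 14 glycogen genes, 1 was higher and 5 lower with bicuculline and 3 higher and 5 lower with KCl. Of 17 genes of the citric acid cycle, 4 were higher and 2 lower with KCl, with changes between -0.23 and 0.22, and with bicuculline none was called higher (0 at an unadjusted p under 0.05) and 3 were lower.

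Markers of other cells moved with KCl too. Their counts stand beside 35.8% of all genes tested called higher and 36.0% lower with KCl, and 17.4% and 27.0% with bicuculline. The summed level (signal over the 75th percentile) of 10 markers of vessel, mural and fibroblast cells was 26.4 to 27.6 untreated, 25.9 to 28.3 with bicuculline and 45.3 to 49.9 with KCl, with Tagln up by 1.27 and Kdr by 0.67, while the endothelial genes Pecam1 and Cdh5 were well above background on 0 arrays, Cldn5 on 1 and Tek on 2. Of these, 7 were called higher and 1 lower with KCl. That of 9 oligodendrocyte-lineage markers was 32.7 to 34.0, 31.3 to 32.6 and 37.3 to 37.9, with 7 called higher and 2 lower with KCl. That of 8 microglial markers was 4.12 to 4.36, 3.34 to 4.89 and 4.80 to 7.31, with 5 called higher. Markers of cycling cells and progenitors went mostly the other way. The sum of 9 was 35.8 to 37.1, 34.6 to 35.6 and 34.7 to 36.5. With KCl 3 of them were higher and 6 lower (median -0.20, changes from -2.51 to 0.49). With bicuculline 1 was higher and 5 were lower. Astrocyte markers were split. The sum of 10 was 95.1 to 102, 93.3 to 96.1 and 108 to 113, with 4 higher and 3 lower with KCl (Gjb6 fell by 0.69) and 5 lower with bicuculline. With normexp correction the KCl change of Gjb6 was 0.70 and was not called. The 10 neuronal markers summed to 126 to 130, 155 to 158 and 157 to 163, so the labelled cell type was present in all groups. With bicuculline 1 of them, Nefl, was called higher (1.52) and 3 lower (Tubb3, Rbfox3 and Slc17a7), and with KCl 6 were higher, Nefl by 1.42, and Tubb3 fell by 0.51. The part of other cells in the KCl rises of Slc2a1, Slc16a1, Vegfa, Adm and P4ha1 was not tested.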

How the data were processed

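Processed signal intensity from one-colour Agilent arrays (Cy3, 100 ng RNA) was used. The deposited intensity had been background-subtracted by Agilent Feature Extraction (10.7.3.1 per the file headers, 10.5.1.1 per the submitters' processing notes), with no scaling between arrays. Here log2 intensity minus each array's 75th percentile over 43379 non-control spots was taken, outlier-flagged spots were dropped (39 values among tested genes), and repeat spots were averaged. RefSeq identifiers (GRCm38.p6 table) named 26888 of 41174 probes. Probes well above background on all arrays of at least 1 group were kept, and the brightest stood for its gene. limma 3.58.1 (R 4.3.3) fitted all 9 arrays by group (6 residual degrees of freedom, two-sided, Benjamini-Hochberg over 14063 genes per comparison, threshold 0.05), and was tested on simulated data. The lists and members were chosen with earlier results of these data known. Values on every array are given for members called with a change of at least 0.5 and for related pairs, and outside the members the 2 largest called changes of a list are named, of which 1 gene is not reported here. Normexp (offset 50) used the deposited median spot and background intensity, since no mean spot intensity was at hand. Other alternatives were quantile, median and spike-in scaling, no filter on dim probes, the mean of a gene's probes, a trended robust prior, replicate and slide blocks, and leaving out each array. Same-numbered arrays of different groups correlated from -0.571 to 0.742 over 9 pairs, with 3 over 0.1. Those 3 were control and bicuculline arrays on the same slide (0.401, 0.26 and 0.742), so number and slide cannot be told apart there. The same-numbered pairs with a KCl array lay on different slides and were all negative. Replicate numbers were not taken as pairs.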

Additional observations from a re-analysis of the deposited data

How the results depend on the processing

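Of 25, 5, 10 and 7 genes called KCl higher, KCl lower, bicuculline higher and bicuculline lower, normexp correction left 7, 3, 1 and 0, quantile normalization 16 and 8 for KCl, median scaling 15 for KCl higher, and spike-in scaling 12 for KCl higher and 6 and 3 for bicuculline. For KCl against bicuculline, the 26 higher became 4, 15, 13 and 4 in that order. Beside the 0 that limma called with normexp, 5 genes were lower at an unadjusted p under 0.05, and over all genes 338 were called lower with bicuculline there and 3798 in the main setting. The KCl medians of enzymes, transport genes and oxygen-sensing genes (0.28, 0.68 and 0.30) became 0.14, 0.52 and 0.17 with normexp, 0.10, 0.58 and 0.13 with quantile, 0.12, 0.52 and 0.14 with median, and 0.052, 0.45 and 0.071 with spike-in scaling. Those for KCl against bicuculline (0.24, 0.34 and 0.36) became 0.060, 0.20 and 0.21, then 0.0096, 0.20 and 0.22, then 0.12, 0.22 and 0.23, then 0.016, 0.12 and 0.13. The bicuculline median of oxygen-sensing genes was -0.20 with median scaling, and with the mean of a gene's probes the bicuculline median of transport genes was 0.39 and the KCl median of oxygen-sensing genes 0.21. Quantile, median and spike-in scaling took the KCl median of all genes from 0.02 to -0.06, -0.14 and -0.20, and the share of KCl calls that were higher from 49.9% to 40.2%, 31.8% and 25.9% (44.2% with normexp). For bicuculline that share was 39.2%, with 58.9% for normexp and 49.8% for spike-in scaling, and for KCl against bicuculline it was 55.6%, with 45.1%, 43.0%, 33.9% and 19.7%.

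Over the pathway lists outside the 33 genes, 14 higher and 33 lower with bicuculline became 7 and 4 with normexp and 9 lower with spike-in scaling. With KCl, 39 higher and 29 lower became 15 and 14 (normexp), 19 and 45 (median) and 17 and 47 (spike-in). For KCl against bicuculline, 51 higher and 21 lower became 13 and 5 with normexp, 24 higher with median scaling, 14 with spike-in scaling and 33 with slide as a block. Over the 54 probes, 14 higher and 10 lower with bicuculline became 2 and 0 with normexp (7 lower at an unadjusted p under 0.05) and 3 lower with spike-in scaling. With KCl, 39 higher and 6 lower became 12 and 3 (normexp), 25 and 10 (quantile), 12 lower (median) and 21 and 12 (spike-in). For KCl against bicuculline, 39 higher and 3 lower became 9 and 1 with normexp, and 22, 21 and 10 higher with quantile, median and spike-in scaling.

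Signs turned for these differences. For KCl against control they were Aldoc (-0.23), Hk1 (-0.12), Ldhb (-0.11) and Pfkm (-0.019) with quantile normalization, Hk1 (-0.062), Eno2 (-0.057), Pfkl (-0.060) and Pfkm (-0.034) with spike-in scaling, and Pfkl (-0.048) and Pfkm (-0.013) with normexp. For KCl against bicuculline they were Aldoc (-0.069), Hk1 (-0.033), Pgam1 (-0.013) and Gapdh (0.00) with quantile normalization, Aldoc (-0.057), Ankrd37 (-0.047), Eno2 (-0.078), Higd1a (-0.064) and Hk1 (-0.022) with spike-in scaling, and Eno2 (-0.021), Ldhb (-0.025) and Pfkm (-0.0042) with normexp. For bicuculline against control Ldhb gave -0.11 with quantile normalization. With the mean of a gene's probes, Pfkfb3 gave 0.27 and the Pfkp/Pfkm log ratio -0.082 for KCl against bicuculline. With slide as a block Pkm gave 0.16 for KCl against control and 0.18 against bicuculline, and leaving out each array gave -0.18 to 0.16 and -0.16 to 0.17. The cause of these changes was not tested.

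Leaving out each array kept the counts of the 33 genes at 25 to 26 higher and 4 to 5 lower for KCl and 8 to 13 higher and 7 to 8 lower for bicuculline. The bicuculline medians ran from 0.39 to 0.47 for transport and -0.20 to -0.15 for oxygen sensing, and the transport median for KCl against bicuculline from 0.31 to 0.40. With a replicate block, though the numbers were not taken as pairs, 4962 genes of the array were called higher and 5010 lower for KCl. Among the 33 genes the block ended the call of Aldoc for KCl against bicuculline (adjusted p = 0.065) and added Egln1 there (0.15, adjusted p = 0.0261). Slide as a block ended, besides the calls given above, those of Aldoa, Aldoc, Pgam1, Slc16a3 and Higd1a for KCl against bicuculline. The number of arrays limits the precision, and all values rest on 3 per group.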
